A study of Homo sapiens with 6 samples.

Results

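The genes described here encode the nuclear-encoded subunits of respiratory complexes I to IV, measured on expression arrays. The cells were KYSE30, an established line from a human squamous carcinoma of the oesophagus. The genes were found by symbol: NDUFA, NDUFB, NDUFC, NDUFS or NDUFV with a number, NDUFAB1, SDHA to SDHD, and symbols that begin with UQCR or with COX4 to COX8. This gave 106 of 34558 array rows and 68 of 19148 genes, 37 of them in complex I, 4 in complex II, 9 in complex III and 18 in complex IV. NDUFA4 was counted in complex IV, of which it is now known to be a subunit. COX7A2L, a supercomplex factor, and UQCRHL, an intronless relative of UQCRH, came in through their symbols.

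Samples 4 to 6 were transfected with an siRNA against MTA2, a subunit of the NuRD histone deacetylase complex. Samples 1 to 3 received a negative control siRNA. All 6 received 20 nmol/ml of siRNA (as the labels print the dose) with Lipofectamine for 48 h, carried no other stated alteration, and came from 1 cell line. The labels do not tell separate cultures from repeats of 1 culture, so the p-values rest on a spread that may be technical. In bulk RNA, fewer cells with a transcript and less of it per cell cannot be told apart.

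The respiratory chain of the inner mitochondrial membrane passes electrons from NADH (complex I) or succinate (complex II) through ubiquinone to complex III, and through cytochrome c to complex IV, which reduces oxygen. Complexes I, III and IV pump protons and so drive ATP synthase. Each of these complexes mixes subunits encoded by mitochondrial and nuclear DNA, whereas complex II is wholly nuclear-encoded. NRF1, GABPA and YY1 are transcription factors known to act at promoters of many nuclear-encoded subunits.

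The guide strands of both siRNAs are shown because they define the groups, with bases 2 to 8, the seed, in capitals.
MTA2 siRNA, antisense: aUAGACGUaaucucccacctt
Control siRNA, antisense: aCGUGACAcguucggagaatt

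Beyond the rule, some of these genes share short promoter motifs. RefSeq promoter windows (GRCh38.p14, from 250 bases before to 50 after the start site, 1 window per gene on the main chromosomes) were matched for 57 of the 68 genes. The windows were searched on both strands for 3 motifs: GCGCA and GCGC with any 1 base between them (NRF1), CCGGAAG (GABPA) and AAGATGGCG (YY1). The NRF1 letters stood in 13 of the 57 windows (22.8%), against 8.4% of the 15169 windows of genes on the array. The GABPA letters stood in 14 (24.6%, against 14.3%) and the YY1 letters in 8 (14.0%, against 2.76%). By complex, the NRF1 letters stood in 6 of 32 windows of complex I, 2 of 3 of complex II, 4 of 7 of complex III and 1 of 15 of complex IV. In the same order, the GABPA letters stood in 4, 2, 3 and 5 windows, and the YY1 letters in 6, 1, 1 and 0. Windows of other mitochondrial genes were not counted apart. At least 1 of the 3 motifs was found in 30 of 57 windows (52.6%), against 22.8% of array genes. These are matches of letters, not sites shown to be bound.

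Shown with the motif in capitals are 30 bases of 4 windows with the NRF1 letters and of 3 with the YY1 letters. Apart from NDUFS4, an accessory subunit, they belong to core subunits of complexes I to III, and all have values below. The YY1 letters lay 11 to 26 bases after the start site in all 8 windows that hold them. These letters contain ATG, and whether a match lies on the start codon of the gene was not examined.
SDHA (chr5:218144-218173, plus strand): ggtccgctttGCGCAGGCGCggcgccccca
SDHD (chr11:112086753-112086782, plus strand): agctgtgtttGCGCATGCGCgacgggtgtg
UQCRC1 (chr3:48609674-48609703, minus strand): gtacggtactGCGCCTGCGCcgcgaccgcc
UQCRFS1 (chr19:29213163-29213192, minus strand): gcgcctcctcGCGCCTGCGCcgtggttgga
SDHB (chr1:17054003-17054032, minus strand): gtcaggagccAAGATGGCGgcggtggtcgc
NDUFS7 (chr19:1383914-1383943, plus strand): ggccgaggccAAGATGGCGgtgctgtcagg
NDUFS4 (chr5:53560650-53560679, plus strand): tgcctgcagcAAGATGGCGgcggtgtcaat
The 13 genes with the NRF1 letters had a median log2 difference between siRNA groups (MTA2 siRNA minus control siRNA) of 0.044, against 0.0077 for the 44 without. For the YY1 letters the medians were -0.064 with them (8 genes) and 0.023 without (49 genes). For the GABPA letters they were 0.036 with them (14 genes) and 0.00045 without (43 genes). Higher values in the samples labelled MTA2 siRNA were read for 8 of 13 genes with the NRF1 letters, against 23 of 44 without. The same counts were 9 of 14 against 22 of 43 for GABPA, and 3 of 8 against 28 of 49 for YY1. These are descriptions with no test.

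Values are the authors' log2 normalised intensities, averaged over the rows of a gene, and differences are on the same log2 scale. Column medians lay between 10.44 and 10.45 and the samples correlated at r = 0.911 to 0.969 across rows. MTA2 itself, the targeted gene, read 13.12, 13.18 and 13.52 in the samples labelled MTA2 siRNA, against 12.92, 13.13 and 13.00 in the controls. The target was thus not lower where MTA2 siRNA was the label (difference 0.26, 95% interval -0.16 to 0.67, limma adjusted p = 0.943), so every direction below refers to the samples as labelled. The label field names Cy5 for samples 2, 4 and 6 and Cy3 for samples 1, 3 and 5, although the protocol names a one-colour kit. Within Cy3, 1 sample labelled MTA2 siRNA stood against 2 controls, and within Cy5 2 stood against 1. The first principal component (39.6% of the variance of genes) separated these dyes. Squamous markers did not stand apart by intensity: their median level in the controls was 10.39, against 10.06, 10.28 and 10.81 for fibroblast, leukocyte and muscle markers and 10.47 for all genes. The squamous keratins KRT5 and KRT14 averaged 13.59 and 13.54 in the samples labelled MTA2 siRNA, against 13.57 and 13.49 in the controls. No detection call was used, so a level here does not show that a gene is expressed.

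Between the siRNA groups no subunit gene passed the test. With limma, 0 of 68 had an adjusted p under 0.05, as for all 19148 genes (0%), and the lowest adjusted p was 0.943. An unadjusted p under 0.05 was reached by 4 of the 68 (5.88%), against 3.75% of all genes (1.76% higher and 1.99% lower). All 4 read lower in the samples labelled MTA2 siRNA: NDUFS8, NDUFV2, COX5A and COX6B2. Of the 68 genes, 35 read higher and 33 lower, with a median difference of 0.0077, against 0.029 for all genes. None differed by 2-fold, and 2 (NDUFS8 and UQCRHL) by more than 1.5-fold.

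**Figure D1:**
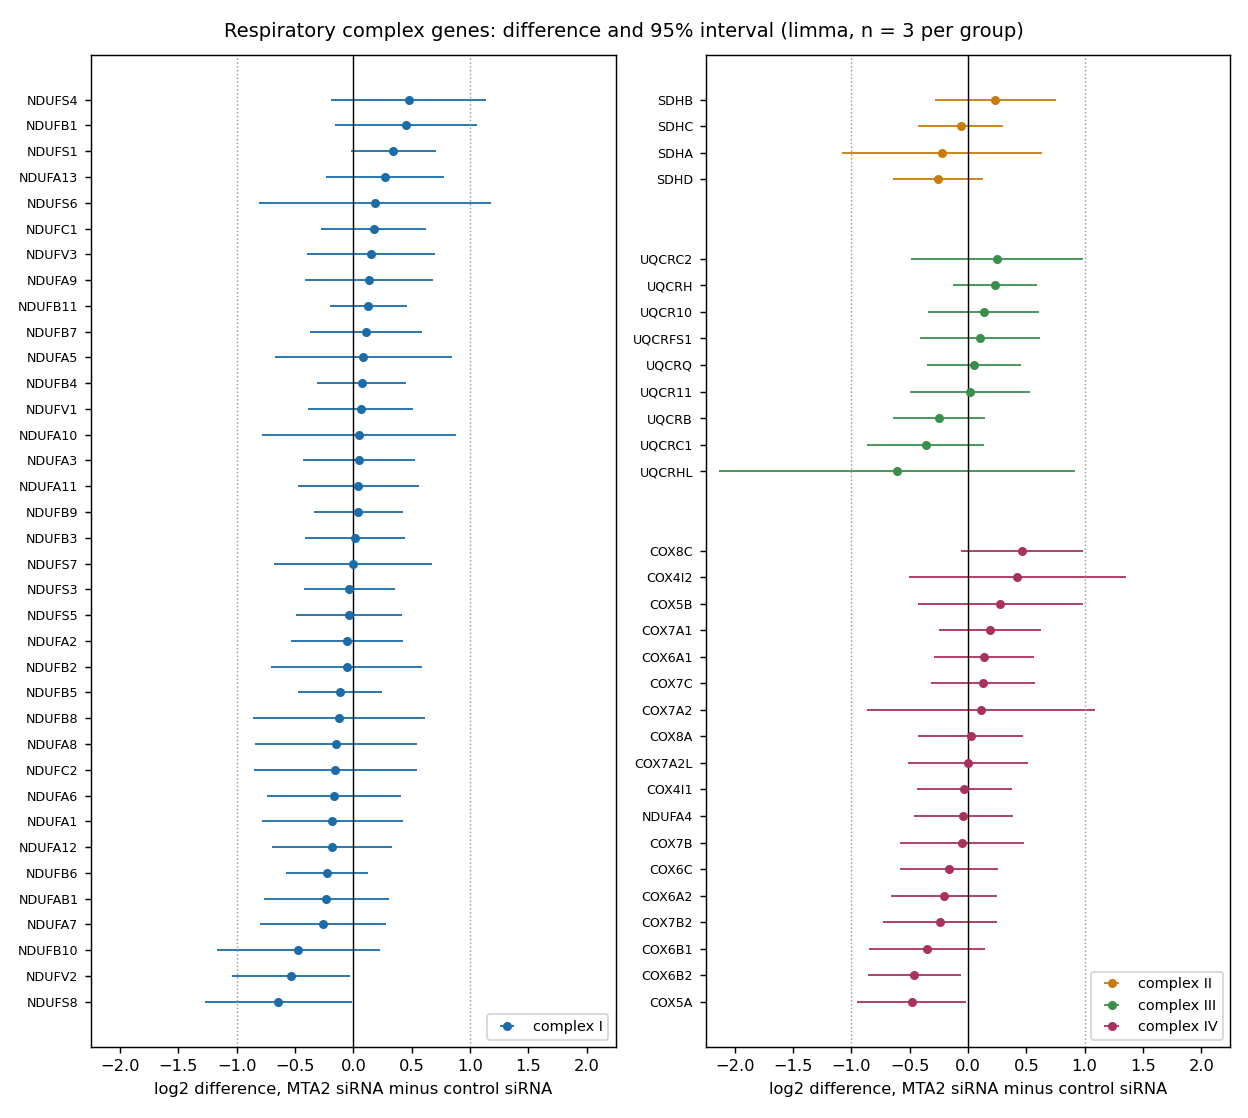
Difference between MTA2 siRNA and control siRNA for 67 of the 68 genes (points, log2) with limma's 95% interval (bars; n = 3 per group), complex I on the left and complexes II to IV on the right, dotted lines at a 2-fold change. The bars of 63 genes cross 0, and those of 57 lie wholly between the dotted lines.

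The 95% intervals of the plain fit were narrow for most genes. They leave dye out and rest on a spread that may be technical, so they do not exclude larger siRNA differences. In 58 of the 68 genes (85.3%) both ends of the 95% interval were smaller than a 2-fold change, against 78.9% of all genes. The median SD within groups was 0.26 for these genes and 0.27 for all genes. In 8 of the 68 (11.8%) the groups did not overlap, 3 higher and 5 lower, where 9.43% of all genes did not overlap (5.43% higher and 4.00% lower). The difference kept its sign with each sample left out in turn for 34 of the 68 genes (50%), against 53.9% of all genes. It had opposite signs within Cy3 and within Cy5 for 32 genes (47.1%), against 45.3% of all genes.

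In complex I, which oxidises NADH, 19 genes read higher and 18 lower, with a median of 0.015. The genes of the electron entry point had differences of both signs. NDUFV1, which holds the NADH site and the flavin, read 8.94, 9.43 and 9.14 in the samples labelled MTA2 siRNA, against 9.15, 9.26 and 8.91 in the controls. The groups overlapped, with a difference of 0.063 (95% interval -0.39 to 0.52). NDUFV2, its iron-sulfur partner, read 10.89, 11.50 and 11.00 in the samples labelled MTA2 siRNA, against 11.64, 11.49 and 11.86 in the controls. Samples 4 and 6 were below all controls, while sample 5 overlapped them. The NDUFV2 difference was -0.53 (SE 0.21, 95% interval -1.04 to -0.028, limma adjusted p = 0.943). It was -0.25 within Cy3, -0.55 within Cy5 and -0.40 with dye as a block. NDUFS1, the largest iron-sulfur subunit of this module, read 11.17, 11.30 and 11.33 in the samples labelled MTA2 siRNA, against 10.85, 10.84 and 11.08 in the controls. Here the groups did not overlap, with the samples labelled MTA2 siRNA higher by 0.34 (95% interval -0.022 to 0.71), and the exact permutation test gave its lowest p for 3 against 3, 0.10. All 5 NDUFS1 rows had a positive difference, between 0.23 and 0.50. These rows are transcripts of 1 gene, not replicates.

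The module that hands electrons to ubiquinone held the lowest difference of the set. NDUFS8, which carries iron-sulfur clusters on the path to ubiquinone, read 11.20, 11.61 and 10.66 in the samples labelled MTA2 siRNA, against 11.62, 12.03 and 11.76 in the controls. The groups were apart by a narrow gap between sample 5 and control 1. The difference was -0.64 (SE 0.27, limma adjusted p = 0.943), or 0.64 times the control level, with an interval of -1.27 to -0.015. It was -0.078 within Cy3 and -1.10 within Cy5, and -0.39 without sample 6, the lowest one. Other core subunits of the module stood near 0. NDUFS7, which carries the last cluster before ubiquinone, read 14.10, 14.71 and 13.77 in the samples labelled MTA2 siRNA, against 14.17, 13.88 and 14.53 in the controls, a difference of -0.00038 (interval -0.68 to 0.68). NDUFS3, a core subunit of the same arm, read 11.49, 11.48 and 11.45 in the samples labelled MTA2 siRNA, against 11.43, 11.36 and 11.74 in the controls, and its difference was -0.034 (95% interval -0.42 to 0.35). In both genes the groups overlapped.

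Among the accessory subunits of complex I the differences ran from -0.47 for NDUFB10, of the membrane arm, to 0.48 for NDUFS4, which is needed for a stable NADH-oxidising module. NDUFS4 read 12.33, 11.39 and 12.29 in the samples labelled MTA2 siRNA, against 11.38, 11.47 and 11.73 in the controls. Its groups overlapped, its interval was -0.19 to 1.14, and its difference was -0.16 within Cy3 and 0.84 within Cy5. NDUFB10 read 10.00, 10.47 and 10.27 in the samples labelled MTA2 siRNA, against 10.86, 10.11 and 11.19 in the controls, with an interval of -1.17 to 0.23. Its 2 highest values were the Cy3 controls. NDUFB1, of the membrane arm, read 12.80, 11.87 and 12.46 in the samples labelled MTA2 siRNA, against 12.10, 11.79 and 11.88 in the controls. Samples 4 and 6, both Cy5, were high and sample 5 lay among the controls. The difference was 0.45 (95% interval -0.15 to 1.06), but -0.12 within Cy3 and 0.84 within Cy5. NDUFB6 (difference -0.23) and NDUFB11 (difference 0.13), both of the membrane arm and named because their groups did not overlap, had intervals of -0.58 to 0.12 and -0.20 to 0.46. The 3 NDUFB6 rows did not share a sign and ran from -0.45 to 0.12. The 2 NDUFB11 rows were both positive, at 0.072 and 0.19.

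**Figure D2:**
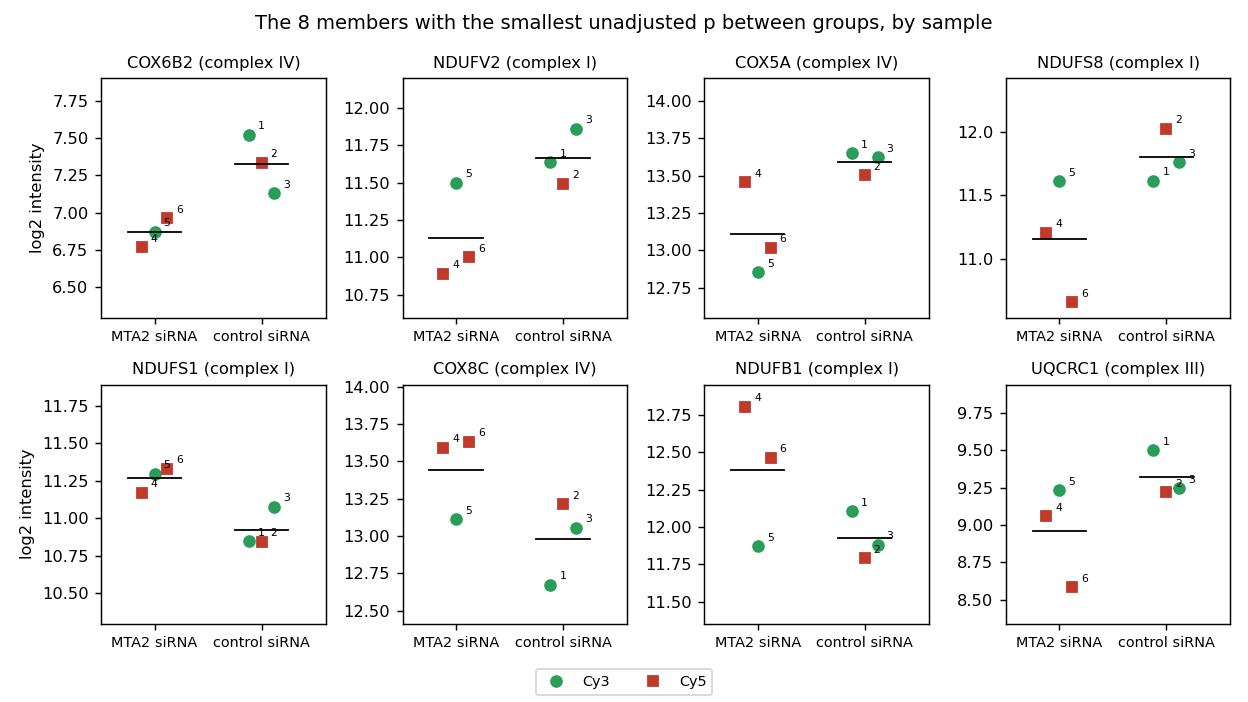
Log2 intensity in each sample for the 8 genes with the smallest unadjusted p between groups (points labelled by sample number, circles Cy3, squares Cy5, line at the mean of 3), MTA2 siRNA left and control siRNA right; panels have separate axes that do not start at 0. NDUFS1 is higher and COX6B2, COX5A and NDUFS8 are lower in all 3 samples labelled MTA2 siRNA, while the groups overlap in the other 4 genes.

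Complex II, the succinate dehydrogenase of the citric acid cycle, has 4 subunits, of which SDHB read higher and the other 3 lower, with a median of -0.14. SDHA, the flavoprotein that binds succinate, read 11.52, 11.44 and 10.27 in the samples labelled MTA2 siRNA, against 10.95, 11.60 and 11.36 in the controls. Sample 6 alone was low, and the difference of -0.22 had a wide interval of -1.08 to 0.64; without sample 6 it was 0.18. SDHB, the iron-sulfur subunit, read 13.23, 12.93 and 13.52 in the samples labelled MTA2 siRNA, against 12.91, 13.28 and 12.79 in the controls, overlapping, with a difference of 0.23 (95% interval -0.29 to 0.75) that was 0.087 with dye as a block. The membrane anchor SDHC read 11.53, 11.47 and 11.50 in the samples labelled MTA2 siRNA, against 11.60, 11.69 and 11.39 in the controls, a difference of -0.063 (95% interval -0.43 to 0.30). The other anchor, SDHD, read 11.00, 10.99 and 11.20 in the samples labelled MTA2 siRNA, against 11.50, 11.22 and 11.24 in the controls. Its groups did not overlap, with a difference of -0.26 (95% interval -0.64 to 0.13) and an exact permutation p of 0.10, the lowest this design allows. The 4 SDHD rows did not share this sign: they ran from -0.60 to 0.22.

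In complex III, which passes electrons from ubiquinol to cytochrome c, 6 genes read higher and 3 lower, with a median of 0.049. The core proteins UQCRC1 and UQCRC2 had opposite signs. UQCRC1 read 9.06, 9.23 and 8.58 in the samples labelled MTA2 siRNA, against 9.50, 9.22 and 9.25 in the controls, with a difference of -0.36 (95% interval -0.87 to 0.14) and sample 6 lowest. UQCRC2 read 11.74, 11.01 and 11.84 in the samples labelled MTA2 siRNA, against 10.98, 11.80 and 11.07 in the controls, a difference of 0.25 (95% interval -0.49 to 0.99). With dye as a block that difference was -0.011, and its 3 high samples were those labelled Cy5. UQCRFS1, the Rieske iron-sulfur protein, read 13.83, 13.76 and 14.29 in the samples labelled MTA2 siRNA, against 13.92, 14.07 and 13.58 in the controls, with a difference of 0.10 (95% interval -0.41 to 0.62). With dye as a block it was -0.00037. UQCRB, a small subunit near the ubiquinone site, read 12.20, 12.00 and 12.31 in the samples labelled MTA2 siRNA, against 12.38, 12.58 and 12.30 in the controls, a difference of -0.25 (95% interval -0.64 to 0.15). The groups overlapped, as they did for UQCR11, another small subunit, with a difference of 0.017 (95% interval -0.49 to 0.53).

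UQCRH, the acidic hinge subunit beside cytochrome c1, read 11.81, 11.99 and 12.04 in the samples labelled MTA2 siRNA, against 11.74, 11.65 and 11.78 in the controls. Its groups did not overlap, with a difference of 0.23 (95% interval -0.13 to 0.59) that was 0.24 within Cy3 and 0.28 within Cy5. The related UQCRHL read 11.68, 12.95 and 11.63 in the samples labelled MTA2 siRNA, against 12.94, 11.35 and 13.79 in the controls, and its difference of -0.61 had the widest interval of the 68 genes, -2.13 to 0.91. With dye as a block it was -0.059. The sequences of the array features were not used here, so how far each row also bound the other transcript cannot be told.

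In complex IV, cytochrome c oxidase, 9 genes read higher and 9 lower, with a median of -0.017. COX4I1, the common form of the largest nuclear-encoded subunit, read 15.58, 15.27 and 15.59 in the samples labelled MTA2 siRNA, against 15.43, 15.69 and 15.42 in the controls. The groups overlapped and the difference was -0.034 (95% interval -0.44 to 0.37). COX5A, which sits on the matrix side, read 13.46, 12.85 and 13.02 in the samples labelled MTA2 siRNA, against 13.65, 13.50 and 13.62 in the controls. All 3 samples labelled MTA2 siRNA lay below the controls, sample 4 by a narrow gap. The difference was -0.48 (SE 0.20, interval -0.95 to -0.017, limma adjusted p = 0.943), or 0.72 times the control level, and -0.78 within Cy3 and -0.27 within Cy5. COX5B, its zinc-binding neighbour, read 11.48, 11.76 and 11.55 in the samples labelled MTA2 siRNA, against 10.66, 11.79 and 11.51 in the controls. Control 1 alone was low, and the difference was 0.27 (95% interval -0.43 to 0.98). NDUFA4 read 12.98, 12.76 and 12.87 in the samples labelled MTA2 siRNA, against 12.73, 12.83 and 13.17 in the controls, a difference of -0.040 (95% interval -0.46 to 0.38). COX7B, a small membrane subunit, read 14.33, 13.61 and 14.08 in the samples labelled MTA2 siRNA, against 13.87, 14.22 and 14.10 in the controls, with a difference of -0.055 (95% interval -0.59 to 0.48).

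Several complex IV subunits have a common and a tissue-restricted form, and the differences of these pairs had both signs. For subunit 6B, the common COX6B1 read 10.63, 11.25 and 11.04 in the samples labelled MTA2 siRNA, against 11.12, 11.50 and 11.36 in the controls, and the testis form COX6B2 read 6.77, 6.87 and 6.96 in the samples labelled MTA2 siRNA, against 7.52, 7.34 and 7.13 in the controls. COX6B2 had the smallest unadjusted p of the 68 genes (0.029, limma adjusted p = 0.943), with groups that did not overlap and a difference of -0.46 (95% interval -0.86 to -0.064). It was -0.45 within Cy3 and -0.47 within Cy5. COX6B2 was also the dimmest of the 68 genes, with 2.31% of all genes below it, in a range where no detection call marks a floor. COX6B1 differed by -0.35 (95% interval -0.85 to 0.15).

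For subunit 8, the testis form COX8C read 13.59, 13.11 and 13.63 in the samples labelled MTA2 siRNA, against 12.67, 13.21 and 13.06 in controls. Its difference was 0.46 (95% interval -0.063 to 0.99), with samples 4 and 6, both Cy5, above all controls. With dye as a block this difference was 0.32. The common COX8A read 12.41, 12.56 and 12.21 in the samples labelled MTA2 siRNA, against 12.13, 12.62 and 12.37 in the controls, and differed by 0.023 (95% interval -0.43 to 0.48). Both forms of subunit 8 had overlapping groups. For subunit 6A, the heart and muscle form COX6A2 read 13.50, 13.54 and 13.00 in the samples labelled MTA2 siRNA, against 13.60, 13.51 and 13.55 in the controls, with sample 6 alone low, and differed by -0.21 (95% interval -0.66 to 0.25). The common COX6A1 read 12.75, 12.34 and 12.52 in the samples labelled MTA2 siRNA, against 12.36, 12.58 and 12.25 in the controls, overlapping, and differed by 0.14 (95% interval -0.29 to 0.57). For subunit 7A, the muscle form COX7A1 read 10.09, 10.15 and 10.04 in the samples labelled MTA2 siRNA, against 10.18, 9.63 and 9.92 in the controls, and differed by 0.19 (95% interval -0.25 to 0.62). Control 1 was the highest sample, so the groups overlapped. The common COX7A2 read 11.53, 11.08 and 10.13 in the samples labelled MTA2 siRNA, against 11.43, 10.50 and 10.48 in the controls, and differed by 0.11 with a wide interval of -0.87 to 1.09. It varied by more than 1 log2 unit among the samples labelled MTA2 siRNA alone. Muscle markers as a list had a median difference of 0.030, 5 higher and 4 lower, and 0 of 9 passed the test.

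For subunit 4, the form COX4I2, known from lung and from low oxygen, read 8.58, 9.39 and 8.61 in the samples labelled MTA2 siRNA, against 8.78, 7.63 and 8.92 in the controls. The groups overlapped in the plain comparison, with a difference of 0.42 (95% interval -0.51 to 1.35). The plain difference ranged from 0.013 (without control 2) to 0.66 with each sample left out. Within each dye the samples labelled MTA2 siRNA were higher, by 0.54 in Cy3 and 0.97 in Cy5. The only Cy5 control was sample 2, the lowest sample (7.63). The fit that held dye as a block gave 0.76, with an unadjusted p of 0.00362 and a limma adjusted p = 0.874. In that fit 6 of the 68 genes had an unadjusted p under 0.05, against 4.95% of all genes, and 0 passed the threshold.

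As wholes the complexes did not separate the groups. Each gene was set to its mean over the 6 samples, and the median deviation over a complex was taken in each sample. For complex I these medians were -0.00069, 0.056 and -0.040 in the samples labelled MTA2 siRNA and -0.041, 0.068 and -0.017 in the controls. For complex IV they were 0.090, -0.13 and -0.075 in the samples labelled MTA2 siRNA, against -0.085, 0.13 and 0.043 in the controls. Complexes II and III lay between -0.15 (complex III, sample 5) and 0.19 (complex III, sample 6). Both extremes were thus in the same group, and the groups overlapped in all 4 complexes.

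**Figure D3:**
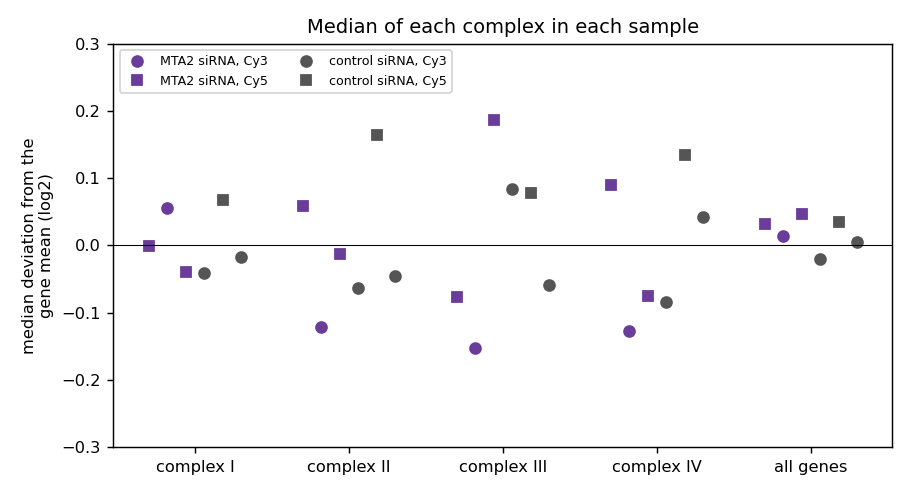
Median over each complex, and over all 19148 genes, of the log2 deviation from the gene's mean over 6 samples (1 point per sample, purple MTA2 siRNA, grey control siRNA, circles Cy3, squares Cy5). The 2 groups overlap in every complex, and all points lie between -0.15 and 0.19.

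The difference between the dyes named in the labels was larger than that between siRNA groups, at equal dye, in 40 of the 68 genes (58.8%), against 62.4% of all genes. Dye was tested in 1 limma fit with both terms, which gives Cy5 minus Cy3 at equal siRNA. Of the 68 genes 0 passed an adjusted p of 0.05, against 0.345% of all genes (0.313% lower in Cy5), and 10 (14.7%) had an unadjusted p under 0.05, against 17.9%. The Cy5 and Cy3 samples did not overlap for 16 genes (23.5%), 7 higher and 9 lower in Cy5, against 27.6% of all genes (15.8% higher and 11.8% lower). Both shares are below those of all genes. The median absolute difference was 0.21 for the 68 genes, against 0.25 for all genes.

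The 4 genes with the smallest unadjusted p for dye follow. UQCRC2 read 11.80, 11.74 and 11.84 in the Cy5 samples, against 10.98, 11.07 and 11.01 in the Cy3 samples. Its dye difference of 0.78 (interval 0.45 to 1.11, limma adjusted p = 0.113) far exceeded the spread inside either dye. NDUFC2, of the membrane arm of complex I, read 12.22, 12.29 and 12.30 in Cy5, against 12.94, 12.93 and 13.04 in Cy3, a difference of -0.73 (interval -1.05 to -0.42, limma adjusted p = 0.115). All 3 NDUFC2 rows were lower in Cy5, with differences of -0.83 to -0.57. UQCRHL read 11.35, 11.68 and 11.63 in Cy5, against 12.94, 13.79 and 12.95 in Cy3, a difference of -1.65 (interval -2.38 to -0.93, limma adjusted p = 0.117). Its relative UQCRH differed by -0.088 (interval -0.44 to 0.26). COX4I2 read 7.63, 8.58 and 8.61 in Cy5, against 8.78, 8.92 and 9.39 in Cy3, a difference of -1.01 (interval -1.41 to -0.61, limma adjusted p = 0.0997).

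Smaller dye differences went both ways. NDUFS7 (-0.62), NDUFB10 (-0.62) and NDUFV2 (-0.40) were lower in Cy5 and SDHB (0.44), COX8C (0.42) and COX7B (0.41) higher, with limma adjusted p from 0.206 to 0.287. Since 2 of the 3 samples labelled MTA2 siRNA and 1 of the 3 controls were Cy5, part of any dye difference enters the plain siRNA comparison. With dye as a block, 32 of the 68 siRNA differences grew or shrank by more than 1.5 times or changed sign. A plain difference near 0 is easily counted in this way, and the same share was not computed over all genes. The fit with dye as a block gave 0.21 for NDUFS7, -0.26 for NDUFB10, -0.13 for COX4I1, 0.044 for COX6A1, 0.23 for COX7A2 and -0.19 for COX7B.

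**Figure D4:**
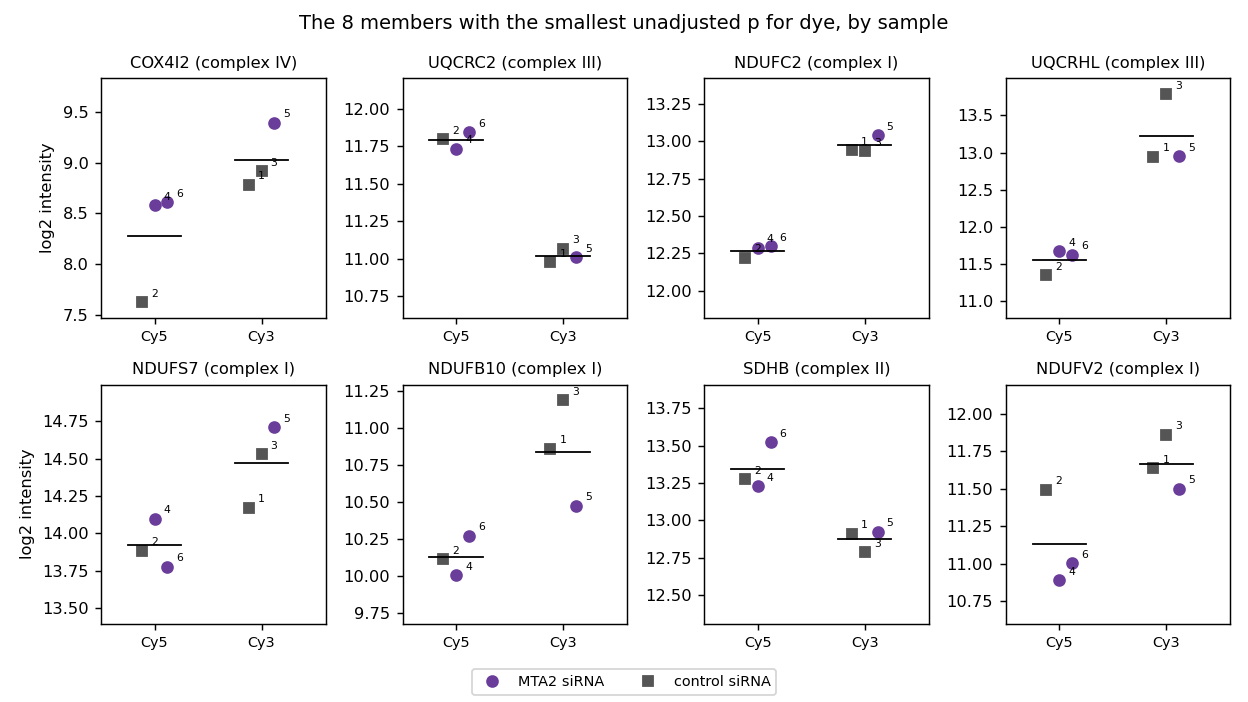
Log2 intensity in each sample for the 8 genes with the smallest unadjusted p for dye (points labelled by sample number, circles MTA2 siRNA, squares control siRNA, line at the mean of 3), Cy5 left and Cy3 right; panels have separate axes that do not start at 0. In all 8 genes the Cy5 and Cy3 samples do not overlap, and UQCRC2 and NDUFC2 show the tightest clusters.

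**Figure D5:**
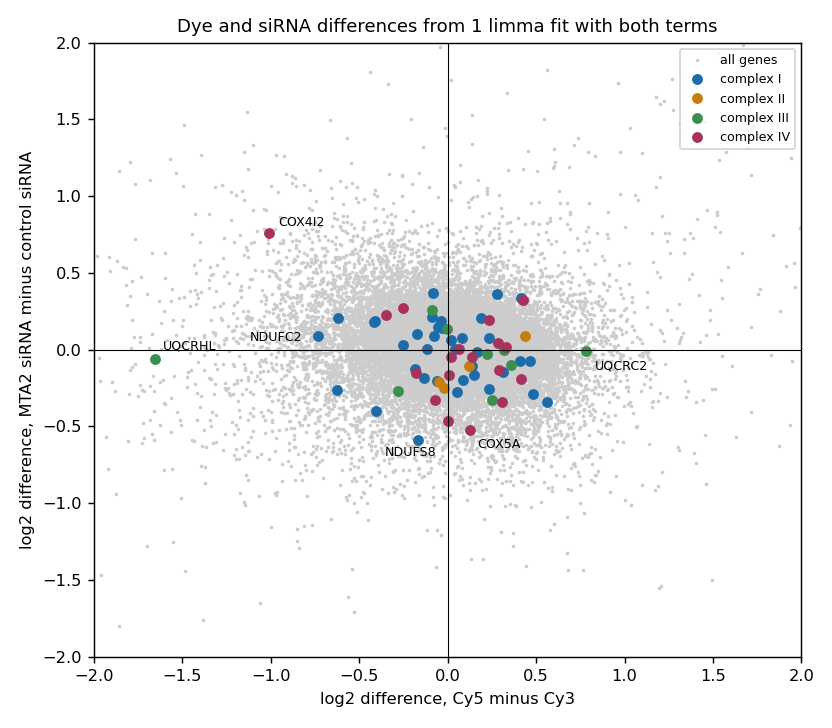
Each gene's log2 difference between dyes (x axis, Cy5 minus Cy3) and between siRNA groups (y axis, MTA2 siRNA minus control siRNA) from the same limma fit, coloured by complex over all genes in grey; 131 genes outside the range of 2 in either direction are not drawn. Most of the 68 genes lie in the dense middle of the cloud, with UQCRHL (-1.65) and COX4I2 (-1.01) farthest out along the dye axis.

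The rows of 1 gene did not always tell the same story. Of the 68 genes, 48 had 1 row and 20 had 2 to 7. The siRNA difference spanned a median of 0.28 across the rows of such a gene, and in 11 of the 20 genes rows had opposite signs. The widest span was in NDUFV3, an accessory subunit of complex I, whose 2 rows had siRNA differences of 0.67 and -0.37. The narrowest was in NDUFA11, with 0.031 and 0.056. Fitted row by row, 0 of 106 rows passed the adjusted threshold between siRNA groups, as for all 34558 rows (0%). For dye 0 of 106 rows passed, against 0.347% of all rows.

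Other genes of mitochondrial energy metabolism, 107 in 8 lists and all measured, gave 0 calls between the siRNA groups, as for all 19148 genes (0%). Of the 107, only 1 (COX18) had an unadjusted limma p under 0.05, against 3.75% of all genes. COX18 encodes the insertase that places a mitochondrially made subunit of complex IV into the membrane. It read 6.02, 6.93 and 6.22 in the samples labelled MTA2 siRNA, against 2.77, -0.12 and 2.94 in the controls. The difference of 4.52 (SE 0.79, interval 2.66 to 6.39) was the highest of all 19148 genes, yet the limma adjusted p was 0.943 (0.874 with dye as a block). The exact permutation test gave its lowest possible p, 0.10. Its single row was among the dimmest, with 0.12% of genes below it, and control 2 lay near the lowest value of the table (-0.83). It was 4.07 within Cy3, 6.23 within Cy5 and 3.53 to 5.06 with each sample left out. Of the 22 complex IV assembly factors 13 read higher and 9 lower, with a median of 0.045. COX19 differed by -0.89 (-1.28 to -0.38 with each sample left out) and LRPPRC, which stabilises mitochondrial mRNAs, by 0.37.

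Of the assembly factors of the other complexes, 0 passed the test. The 15 factors of complex I had a median of -0.0043 (6 higher, 9 lower), with FOXRED1 at 0.30, NDUFAF2 at 0.47 and ECSIT at 0.19. Of the 4 factors of complex II, 2 read higher and 2 lower, with a median of -0.095. SDHAF2, which helps attach the flavin to SDHA, differed by 0.55 (95% interval -0.036 to 1.13) with groups that did not overlap, while SDHA itself differed by -0.22. SDHAF1 differed by -0.33 and SDHAF4 by -0.35. The 6 factors of complex III had a median of -0.028 (2 higher, 4 lower), with LYRM7, a chaperone of the Rieske protein, at 0.46 (0.76 with dye as a block), UQCC2 at -0.40 and TTC19 at -0.34.

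ATP synthase and its factors, 20 genes, had a median of -0.032 (8 higher, 12 lower). Among them the central stalk gene ATP5F1C differed by -0.55, but by 0.27 within Cy3 and -1.01 within Cy5. Its difference was -0.27 without sample 4 and -0.94 without sample 5. The stator gene ATP5PO differed by -0.33 and the c-ring gene ATP5MC3 by 0.28. The 13 genes of electron carriers and ubiquinone synthesis had a median of 0.11 (8 higher, 5 lower), with CYC1, the cytochrome c1 of complex III, at 0.18, COQ4 at -0.62 and COQ6 at 0.18. The 13 citric acid cycle genes had a median of -0.050 (6 higher, 7 lower), with SUCLG1 at 0.35, IDH3B at 0.35 and IDH3A at 0.25. The 14 regulators of mitochondrial biogenesis had a median of -0.056 (5 higher, 9 lower). Of these POLRMT, the mitochondrial RNA polymerase, differed by 0.42, the helicase gene TWNK by -0.20 and GABPA by 0.46, or by 0.14 with dye as a block.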

How the data were processed

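The deposited values are log2 intensities that the authors had normalised, 34558 rows with 1 column per sample. The series value table held the same values. Per the labels' protocols, double-stranded cDNA was labelled with a one-colour NimbleGen kit and read on a GenePix scanner. Not given in the sources used here are the background correction, the normalisation method and any filter. Row accessions and symbols were matched to RefSeq genes (GRCh38.p14, for names alone; 33805 rows matched by accession), and the rows of a gene were averaged on the log2 scale without a filter. The main test was limma 3.58.1 (R 4.3.3, lmFit and eBayes, two-sided) over all 19148 genes, Benjamini-Hochberg adjusted, with calls at 0.05. A separate fit held dye as a second term. For single genes an exact permutation test over the 6 samples was added (lowest possible p 0.10). The fits were run on simulated data with known changes, drawn independently for each gene and sample. A dye difference across the whole table and repeats of 1 culture were not simulated. Arrays have no read depth, and the number of samples limits the precision. Members and lists were chosen with earlier results of these data known. Genes named with values are core subunits of complexes I and III, the SDH subunits, COX4I1, COX5A, COX5B and the paired isoforms. Also named are the members of each complex with the smallest p for siRNA (up to 4) or dye (up to 3), and up to 3 genes of each other mitochondrial list. NDUFS4, NDUFB6, NDUFB11, NDUFV3 and NDUFA11 were named after their values were seen. Alternatives covered normalisation, dim genes, rows, variance model, sample weights, dye, thresholds, the complex of NDUFA4 and each sample left out. Plots were drawn with matplotlib 3.10.9. Of the members, 1 is not reported here by name; it is counted in the totals and medians and left out of the plot of intervals.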

Additional observations from a re-analysis of the deposited data

How the results depend on the processing

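No paired analysis was possible because the samples are numbered 1 to 6 and the groups share no number. The number of the 68 genes called between siRNA groups stayed 0 in every alternative run at an adjusted threshold (lowest limma adjusted p = 0.532, without sample 5), and was 4 at an unadjusted p of 0.05. Over the whole table the count of 0 became 4 within Cy3, where the lone MTA2 siRNA sample is assumed to vary like the controls, and 719 at an unadjusted p of 0.05. Leaving out single samples gave 0 to 3 genes, 3 of them without control sample 2 and 1 without sample 6, and 0 of the 68. For dye, 2 of the 68 were called when only genes above the median level were fitted (NDUFC2 and UQCRC2). With a trended robust variance 2 were called (NDUFC2 and UQCRHL), and with 1 sample left out the count stayed 0. The share of all genes called in these alternative dye fits is not given here. The 0.345% above belongs to the main dye fit, so these counts do not show that the 68 genes differ from other genes.

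The median of complex I (0.015) moved to -0.039 among genes above the median level and to -0.097 within Cy5. That of complex II (-0.14) moved to 0.038 with the brightest row per gene and 0.024 within Cy3, and ranged from -0.17 to 0.011 with 1 sample left out (0.011 without sample 6). That of complex III (0.049) moved to -0.095 within Cy3 and ranged from -0.062 to 0.14 with 1 sample left out. That of complex IV (-0.017) ranged from -0.13 to 0.046 with 1 sample left out. The sign of each median turned in some alternatives (7 of 18 for complex I, 3 of 17 for II, 6 of 17 for III and 5 of 18 for IV). Of the 35 genes chosen by rule, 20 changed sign in at least 1 alternative and 15 in none. The cause of these moves was not tested.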
